A study of Mus musculus with 2 samples.

Results

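The enzymes that build galactolipids, sphingomyelin and their fatty acids were examined as a set of 46 genes in cultured mouse oligodendrocytes, comparing 1 control library with 1 Seh1cKO library. The genes were taken by symbol from both library tables. Of the 46, 45 were listed in at least 1 library, out of 18651 genes listed in all. Cers1 was listed in neither library, and Sptlc3 had 4 reads in control and was not listed in Seh1cKO. The other 44 reached 1 CPM (reads per 1000000 assigned reads) as their mean of both libraries and are called measured below.

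The labels give wild type as the genotype of the control and mutant as that of Seh1cKO, and for both C57BL/6, forebrain tissue and an age of postnatal day 4 to 7. Seh1cKO denotes a conditional knockout of Seh1l, which encodes a nuclear pore scaffold protein; the Cre driver, the deleted exons and the number of animals per culture were not given in the sources used here. Precursor cells had been obtained by immunopanning, on anti-GalC plates followed by anti-O4 plates. They were grown in 20 ng/ml each of bFGF and PDGF-AA, with NT3 at 1 ng/ml and CNTF at 10 ng/ml, and moved to medium with triiodothyronine (T3, 60 nM) and without PDGF-AA, bFGF and NT3. RNA was taken on day 2 of T3, the stage that the series calls immature oligodendrocytes; its title names Seh1, Olig2 and Brd7 as partners in differentiation and myelination.

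Myelin is a membrane unusually rich in galactosylceramide and its sulfated form, sulfatide. Their synthesis starts when serine palmitoyltransferase joins serine to palmitoyl-CoA. The product is reduced, acylated by a ceramide synthase and desaturated to ceramide, on which a sugar or a phosphocholine head group is then placed. The acyl chains come from fatty acid synthase and are lengthened by elongases and desaturated by the Scd and Fads enzymes, many of them controlled by the transcription factor SREBP-1, the product of Srebf1. Oligodendrocytes that start to make myelin are known for high levels of the galactolipid enzymes.

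The libraries held 20730083 (control) and 20599564 (Seh1cKO) rounded reads. Seh1l was at 32.1 CPM in control versus 18.5 CPM in Seh1cKO, 0.577 of the control level (0.508 to 0.656). Intervals here are exact 95% intervals from the read counts and cover counting error only, since there was 1 library per group, no replicate and no test of genotype. Oligodendrocyte markers were read in both libraries, with Sox10 at 426 and 207 CPM and Mog at 5.74 and 0.388 CPM. Of the 8 in the list, the 7 measured ones were at least 2-fold lower in Seh1cKO, the list summing to 3068 and 729 CPM. Mobp, the marker with a mean below 1 CPM, had a level of 0.289 and 0.0971 CPM. The stage markers differed in direction: all 5 markers of newly formed oligodendrocytes were at least 2-fold lower, their sum being 2607 and 647 CPM, while 3 of 4 precursor markers were higher (Pdgfra, Cspg4 and Ptprz1) and C1ql1 was lower, the sum being 796 and 1102 CPM. Markers of other cells were read in both libraries, those of endothelial cells and microglia at low levels. The 9 astrocyte markers summed to 11954 CPM in control versus 7783 CPM in Seh1cKO, 7 of them lower and 2 higher. In each library that sum was above the sum of the oligodendrocyte markers. The 10 fibroblast and mural cell markers summed to 209 and 621 CPM, all 9 measured ones higher. The 8 epithelial and mesothelial markers summed to 11.1 and 204 CPM, 6 of the 7 measured ones higher. The other, Epcam, was at 7.91 and 7.04 CPM and made up most of the control sum. Neuron markers summed to 414 and 436 CPM, most of it Map2 at 279 and 270 CPM, while 4 of the 6 (Stmn2, Syt1, Snap25 and Rbfox3) were at least 1.5-fold higher and the median log2 ratio of the list was 0.70. Endothelial markers summed to 11.1 and 25.4 CPM, with 3 of the 4 measured ones higher and 1 lower. Most of that difference was Cdh5 at 1.01 and 13.8 CPM, while Kdr was at 5.35 and 4.95 CPM. Microglia markers summed to 7.77 and 16.8 CPM, all 4 measured ones higher. Aif1, below 1 CPM, was at 0.579 and 0.194 CPM. No marker of these 6 lists was at 0 in both libraries. Sex-linked genes were unlike as well, with Xist at 0.868 and 341 CPM and the Y-linked Eif2s3y at 82.2 and 0.0485 CPM, so sex and genotype cannot be told apart. In bulk RNA, fewer cells of a type and less RNA per cell cannot be told apart either.

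Of the 44 measured genes, 4 were at least 2-fold lower in Seh1cKO (Fa2h, Ugt8a, Gal3st1 and Elovl7), beside 1.29% of all 13758 measured genes, and 1 was at least 2-fold higher (Cers6), beside 2.86% of all genes. These folds are on the log2(CPM + 1) scale. With a limit of 1.5-fold, 5 were lower and 1 higher, beside 3.52% and 9.43% of all genes. By sign alone, 23 were lower and 21 higher, beside 39.1% and 60.9% of all genes. When the libraries were scaled by the median of ratios instead of by their totals, that split was 29 lower and 15 higher, beside 50.0% of all genes lower. The median log2 ratio was -0.07 over the 44 genes (interval -0.25 to 0.05 over genes) and 0.07 over all measured genes. The set was chosen with earlier results of these data known, so this interval is no test against all genes. Together the genes took 1.36% of reads in control and 1.14% in Seh1cKO.

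**Figure D1:**
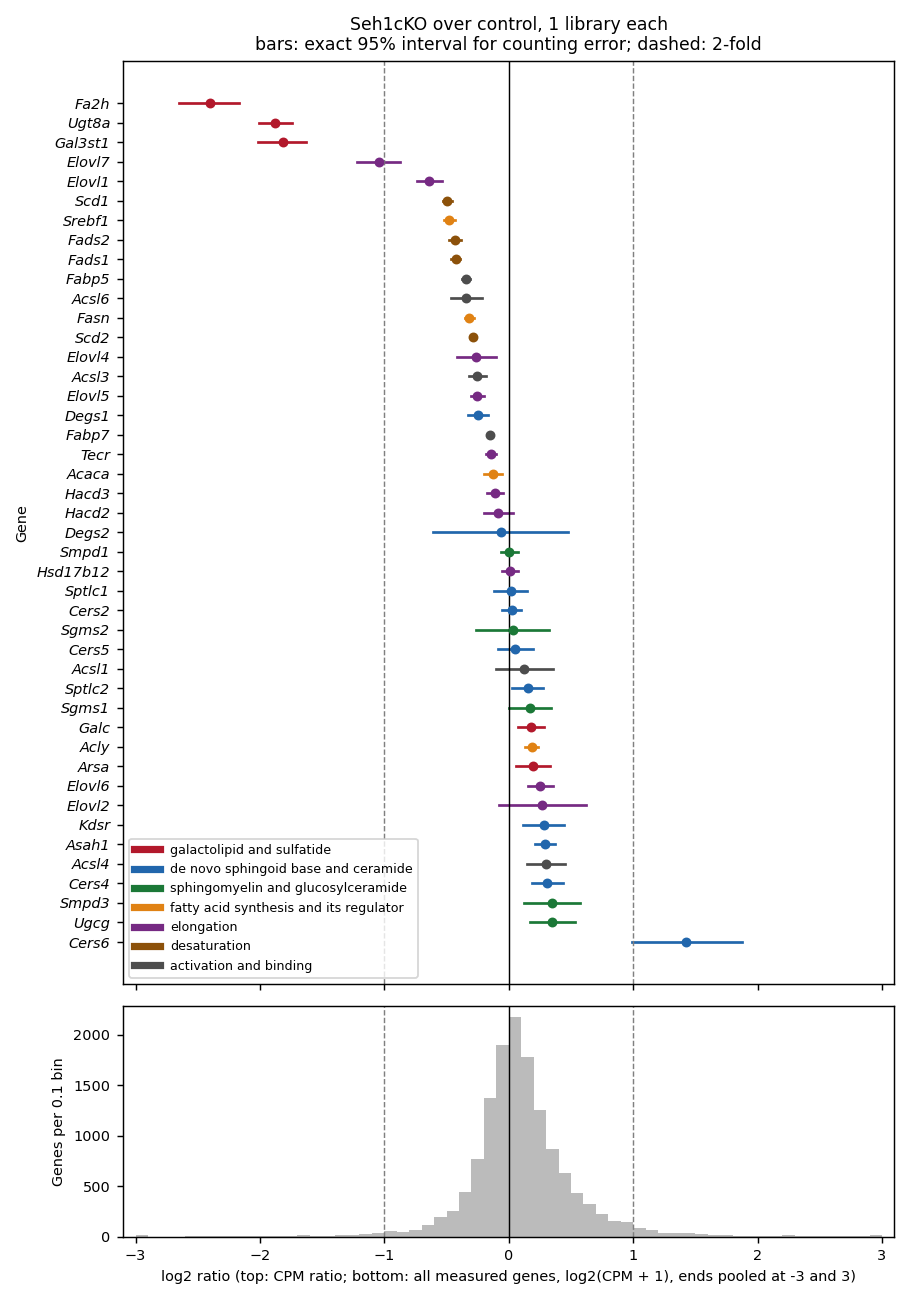
Seh1cKO over control for the 44 measured lipid genes (top; points are log2 CPM ratios, bars exact 95% intervals for counting error, colours roles) above the log2(CPM + 1) differences of all 13758 measured genes (bottom). The 3 galactolipid synthesis genes and Elovl7 lie beyond 2-fold on the lower side, Cers6 on the higher side, and the other genes lie between.

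The 3 genes that synthesise and decorate galactolipids had the 3 lowest log2 ratios of the set. Sequence of the DNA just before the gene start is shown for Ugt8a and Gal3st1, which stood close together in ratio, and for Ugcg, whose enzyme uses the same ceramide substrate and which was higher. It is from the RefSeq promoter table (GRCm38.p6), ending where the RefSeq gene begins and written 5′ to 3′ on the gene's strand. Capitals mark GGGCGG (the Sp1 box) or CCAAT (the NF-Y box), on either strand.
Ugt8a (chr3:125938683-125938902, minus strand): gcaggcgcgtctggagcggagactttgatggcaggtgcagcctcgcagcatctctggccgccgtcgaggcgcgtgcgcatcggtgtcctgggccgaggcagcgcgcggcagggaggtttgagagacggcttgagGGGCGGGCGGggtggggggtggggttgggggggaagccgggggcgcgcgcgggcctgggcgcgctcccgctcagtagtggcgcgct
Gal3st1 (chr11:3983386-3983635, plus strand): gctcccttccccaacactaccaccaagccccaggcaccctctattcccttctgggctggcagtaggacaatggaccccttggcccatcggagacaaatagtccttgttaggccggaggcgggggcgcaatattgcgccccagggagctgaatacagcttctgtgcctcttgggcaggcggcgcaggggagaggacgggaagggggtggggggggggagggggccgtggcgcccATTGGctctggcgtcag
Ugcg (chr4:59189300-59189506, plus strand): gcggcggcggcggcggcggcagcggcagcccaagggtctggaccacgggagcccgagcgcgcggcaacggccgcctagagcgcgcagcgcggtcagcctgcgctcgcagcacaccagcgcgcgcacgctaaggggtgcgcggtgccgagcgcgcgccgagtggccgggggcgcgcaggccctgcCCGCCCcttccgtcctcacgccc
Ugt8a held 2 overlapping Sp1 boxes. Gal3st1 held an NF-Y box on the opposite strand, ending 12 bases before the gene, and Ugcg an Sp1 box on the opposite strand, ending 17 bases before it. Gal3st1 has 3 start windows in the table, of which the one furthest upstream is shown.

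Promoter windows were present for 39 of the 46 genes; those without one are Asah1, Fa2h, Fabp5, Fads1, Scd1, Scd2 and Smpd3. In the 250 bases before the start, GGGCGG was found in 29 of the 39 genes, against 35.4% of 27025 genes with a window, and CCAAT in 19 of 39, against 37.5%. The 27025 genes were not limited to those measured here, so they are not a matched group and the shares give no enrichment of the set. The SREBP element TCACCCCAC was found in 1 gene, Acsl1 (0.555% of all genes). The MYRF sequence CTGGCAC was found in Srebf1 and Sptlc3 (4.83% of all genes) and the SOX sequence ACAAAG in 7 genes (18.6% of all genes), none of them Ugt8a or Gal3st1. The receptor half-site AGGTCA was in 10 genes (15.8% of all genes) and the E-box CACGTG in 7 (6.86%). Both strands were searched, the letters of these motifs do not contain one another, and a match describes the letters only.

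Fa2h encodes fatty acid 2-hydroxylase, which makes the hydroxylated acyl chains of myelin galactolipids (Entrez 338521, chromosome 8, 111345138 to 111393821, GRCm38). It was at 43.7 CPM in control (906 reads) and 8.25 CPM in Seh1cKO (170 reads). That is 5.30-fold lower (4.49 to 6.28), the lowest ratio of the 44 genes. Ugt8a encodes the ceramide galactosyltransferase that makes galactosylceramide (Entrez 22239, chromosome 3, 125865272 to 125938682). It was at 104 CPM in control (2147 reads) and 28.2 CPM in Seh1cKO (581 reads), 3.67-fold lower (3.35 to 4.03). Gal3st1 encodes the sulfotransferase that turns galactosylceramide into sulfatide (Entrez 53897, chromosome 11, 3983636 to 3999328). It was at 49.1 CPM (1018 reads) and 13.9 CPM (287 reads), 3.52-fold lower (3.09 to 4.03). The intervals of Ugt8a and Gal3st1 overlapped almost fully: the read ratio of Gal3st1 to Ugt8a was 1.04 times its control value in Seh1cKO (0.884 to 1.23). Fa2h stood further down, its read ratio to Ugt8a being 0.693 of the control value (0.571 to 0.839).

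The lysosomal enzymes that break these lipids down did not share that direction. Their log2 ratios lay between the quartiles of all measured genes (-0.10 and 0.27). An interval above equality, which both had, was found for 35.5% of all genes. Galc, the galactosylceramidase whose loss causes Krabbe disease, was at 67.0 CPM in control versus 75.8 CPM in Seh1cKO, 1.13-fold higher (1.05 to 1.22). Arsa, the arylsulfatase that desulfates sulfatide, was at 40.6 and 46.5 CPM, 1.14-fold higher (1.04 to 1.26). Per length, Ugt8a was therefore above Galc in control and below it in Seh1cKO. FPKM divides the count by transcript length as well as library size, and the FPKM ratio of Ugt8a to Galc was 1.64 in control and 0.396 in Seh1cKO, a 4.16-fold smaller read ratio (3.69 to 4.68). For the sulfatide step the order turned in the same way, with an FPKM ratio of Gal3st1 to Arsa of 2.53 and 0.615, a 4.04-fold smaller read ratio (3.43 to 4.76). The oligodendrocyte markers of the same libraries, summed, were 0.238 of control (0.233 to 0.242), which lies within the range of the 3 synthesis genes (0.189 to 0.284). The summed markers of newly formed oligodendrocytes were 0.248 of control (0.244 to 0.253) and those of precursors 1.38 times control (1.36 to 1.41). The part of cell number, of stage and of the panning on anti-GalC and anti-O4 plates in these values was not tested.

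Upstream of the head group, most genes of sphingoid base and ceramide metabolism were within 1.5-fold of control, 9 of the 10 measured, and Cers6, described with the ceramide synthases, was higher. Sptlc1, the shared subunit of serine palmitoyltransferase, was at 43.5 and 43.9 CPM, with a ratio of 1.01 (0.921 to 1.11). Sptlc2, a catalytic subunit, was at 48.6 and 54.0 CPM, 1.11-fold higher (1.02 to 1.21). Sptlc3, the alternative catalytic subunit, had 4 reads and 0 reads, close to the floor of 3 reads (0.145 CPM in control, 0.146 CPM in Seh1cKO), and no fold is given. Kdsr, which reduces the sphingoid base, had levels of 26.8 and 32.6 CPM, 1.22-fold higher (1.09 to 1.36). Degs1, the desaturase that completes ceramide, was on the lower side, at 128 and 108 CPM, 1.18-fold lower (1.12 to 1.25). Degs2, a desaturase that also hydroxylates, was low at 2.94 and 2.82 CPM with a ratio of 0.957 (0.656 to 1.39). Asah1, the acid ceramidase that splits ceramide in the lysosome, was at 118 and 144 CPM, 1.22-fold higher (1.16 to 1.29). This group has 12 genes, of which 10 were measured, 8 of them higher and 2 lower, beside 60.9% and 39.1% of all genes. The interval lay above equality for 5 and below it for 1, beside 35.5% and 20.0% of all genes. The median log2 ratio was 0.10 beside 0.07 over all genes.

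The ceramide synthases differ in the length of the acyl chain they prefer, Cers2 attaching the very long chains typical of myelin and Cers5 and Cers6 shorter ones. Cers2 was at 142 and 144 CPM, with a ratio of 1.02 (0.965 to 1.07). Cers5 was at 38.8 and 40.3 CPM, with a ratio of 1.04 (0.941 to 1.14), so for both genes the interval held equality. Cers4 was at 44.8 and 55.5 CPM, 1.24-fold higher (1.14 to 1.35). Cers6 (Entrez 241447, chromosome 2, 68861145 to 69114284) was the gene with the highest ratio of the set. It was at 2.89 CPM in control (60 reads, interval 2.21 to 3.73) and 7.77 CPM in Seh1cKO (160 reads, interval 6.61 to 9.07), 2.68-fold higher (1.98 to 3.67). It stayed the scarcest measured ceramide synthase, with 0.741% of the summed FPKM of Cers2, Cers4, Cers5 and Cers6 in control and 1.88% in Seh1cKO, while Cers2 held 67.8% and 64.9%. The 2-fold call of Cers6 depended on the amount added to its low level. The log2 ratio was 1.17, and 1.39 with a pseudocount of 0.1 CPM. It was 0.69 with a pseudocount of 5 CPM and 0.77 on log2(FPKM + 1). Fibroblast, mural, epithelial and mesothelial markers were higher in sum in the same library, and their part in the Cers6 value was not tested.

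Cers1, the ceramide synthase known from neurons, shares its locus with Gdf1. RefSeq places Cers1 at chromosome 8, 70315775 to 70331588, and Gdf1, a TGF-beta family ligand, at 70315775 to 70331592. Gdf1 was listed at 153 CPM in control versus 93.2 CPM in Seh1cKO, 1.64-fold lower (1.55 to 1.73). Reads of Cers1 and Gdf1 transcripts cannot be told apart in these tables, so this value is given for the locus and not for Cers1.

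The enzymes that place the other head groups on ceramide were equal or slightly higher. Ugcg, the glucosylceramide synthase that begins ganglioside synthesis (Entrez 22234, chromosome 4, 59189507 to 59222833), was at 22.1 and 28.3 CPM, 1.28-fold higher (1.13 to 1.45). Sgms1, the sphingomyelin synthase of the Golgi, was at 26.2 and 29.5 CPM, 1.12-fold higher (1.00 to 1.27). Sgms2, its relative at the plasma membrane, was at 9.26 and 9.47 CPM, with a ratio of 1.02 (0.833 to 1.25). The balance among them differed between the libraries: Ugt8a made up 65.8% of the summed FPKM of Ugt8a, Ugcg, Sgms1 and Sgms2 in control and 31.1% in Seh1cKO. The sum was 43.3 FPKM in control and 25.0 FPKM in Seh1cKO. The FPKM ratio of Ugt8a to Ugcg was 4.83 in control and 1.03 in Seh1cKO, a 4.69-fold smaller read ratio (4.01 to 5.48). Among the sphingomyelinases, which return sphingomyelin to ceramide, Smpd1 of the lysosome was at 156 and 157 CPM, with a ratio of 1.00 (0.956 to 1.05). Smpd3, the neutral enzyme, was at 14.3 and 18.2 CPM, 1.27-fold higher (1.09 to 1.48). All 5 genes of this group had ratios above 1, beside 60.9% of all genes with log2 ratios above 0, and none was past 1.5-fold. With median of ratios scaling, the log2 ratios of Smpd1 and Sgms2 were below 0.

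**Figure D2:**
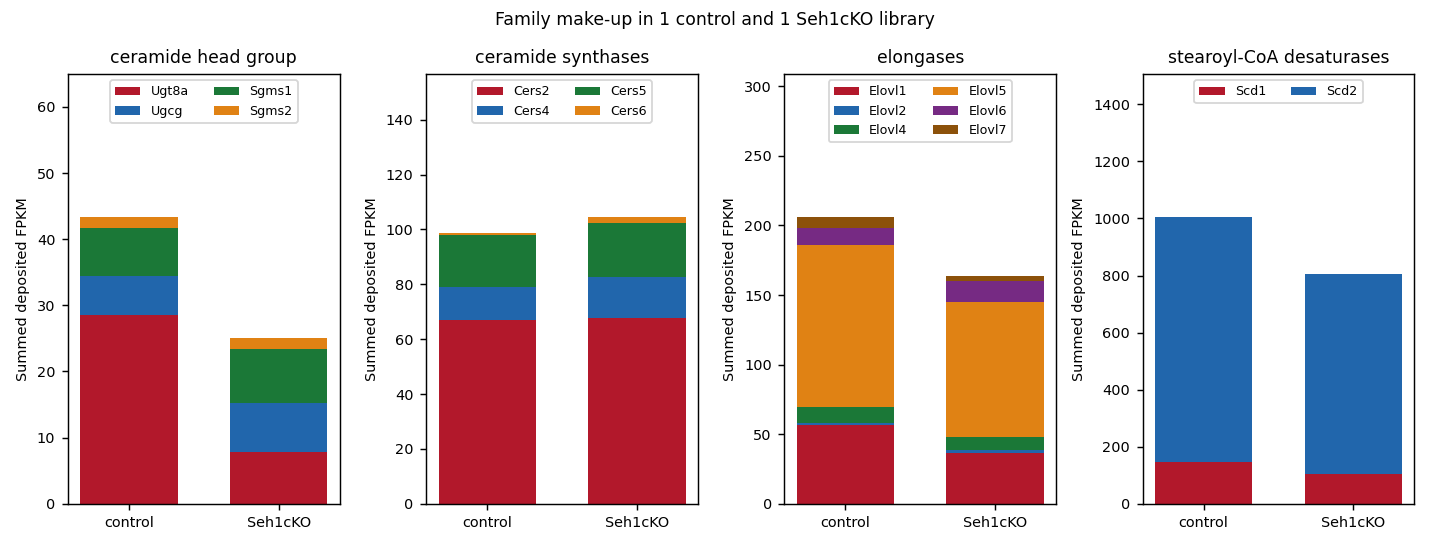
Summed deposited FPKM of 4 gene families in 1 control and 1 Seh1cKO library, each bar split by gene (y axes start at 0 and differ between panels). Ugt8a goes from 65.8% to 31.1% of the head group enzymes, while Cers2 stays the largest ceramide synthase, Elovl5 the largest elongase and Scd2 the larger desaturase.

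Fatty acid synthesis genes were lower by less than 1.5-fold, apart from the step that supplies acetyl-CoA. Srebf1 (Entrez 20787, chromosome 11, 60199084 to 60224186) was at 471 CPM in control versus 338 CPM in Seh1cKO, 1.39-fold lower (1.35 to 1.44). Fasn, fatty acid synthase (Entrez 14104, chromosome 11, 120805958 to 120825166), was at 748 and 601 CPM, 1.25-fold lower (1.22 to 1.27). Acaca, the carboxylase that makes malonyl-CoA, was at 164 and 150 CPM, 1.09-fold lower (1.04 to 1.15). Acly, which splits citrate to acetyl-CoA, went the other way, at 254 and 289 CPM, 1.14-fold higher (1.10 to 1.18). The read ratio of Acly to Fasn was thus 1.42 times its control value in Seh1cKO (1.35 to 1.48). The group median log2 ratio was -0.22 over 4 genes.

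All 4 desaturase genes were lower, beside 39.1% of all genes. Scd1 was further down than Scd2, its neighbour, and Fads1 and Fads2 were lower by similar amounts. Scd2, the main stearoyl-CoA desaturase of brain (chromosome 19, 44293676 to 44306864), was at 4736 CPM in control versus 3881 CPM in Seh1cKO, 1.22-fold lower (1.21 to 1.23). Scd1, its neighbour (chromosome 19, 44394450 to 44407709), was at 717 and 509 CPM, 1.41-fold lower (1.37 to 1.44). The genes lie 87586 bases apart, and Scd2 held 85.4% of their summed FPKM in control and 87.1% in Seh1cKO. The read ratio of Scd2 to Scd1 was 1.15 times its control value in Seh1cKO (1.12 to 1.19). Fads1 (chromosome 19, 10182877 to 10196874), a desaturase of polyunsaturated fatty acids, was at 765 and 569 CPM, 1.34-fold lower (1.31 to 1.38). Fads2 (chromosome 19, 10062765 to 10101503), which acts before it, was at 393 and 292 CPM, 1.35-fold lower (1.30 to 1.39). The read ratio of Fads1 to Fads2 was 1.00 times its control value (0.963 to 1.05). Scd1, Scd2 and Fads2 had counts that were not whole, so the authors' counting may have divided reads among near-identical relatives, which was not tested; the relatives Scd3 and Scd4 were at 1.21 and 0.825 CPM, and at 1.01 and 2.14 CPM. Fads3, a relative not in the set, was at 18.6 and 31.5 CPM, 1.69-fold higher (1.49 to 1.93). The median log2 ratio of the 4 desaturases was -0.43 beside 0.07 over all genes. Astrocytes also express Scd2, Fads1 and Fads2, and the astrocyte markers of these libraries were lower in sum, at 0.651 of control (0.647 to 0.655). Gfap, at 5200 and 2214 CPM, made up much of that sum; 7 of the 9 astrocyte markers were within 1.5-fold, Aldh1l1 and Gja1 being higher, and the median log2 ratio of the list was -0.23. Their part in the desaturase values was not tested.

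Among the elongases, those of very long saturated chains differed most. Elovl7 (Entrez 74559, chromosome 13, 108214326 to 108287109) was at 41.9 CPM in control versus 20.3 CPM in Seh1cKO, 2.07-fold lower (1.84 to 2.33). Its log2 ratio of -1.01 was just past 2-fold, and it was -0.89 with a pseudocount of 5 CPM and -0.88 on log2(FPKM + 1). Elovl1, which makes the very long saturated acyl-CoAs used by Cers2 (Entrez 54325, chromosome 4, 118426874 to 118432953), was at 103 and 66.4 CPM, 1.56-fold lower (1.45 to 1.67). Elovl1 overlaps Cdc20, a mitotic gene that was higher at 66.6 and 88.0 CPM, and the strand setting of the counting was not given in the sources used here. Elovl6, which takes palmitate to stearate, was at 76.3 and 91.0 CPM, 1.19-fold higher (1.12 to 1.28). The FPKM ratio of Elovl1 to Elovl6 was 4.48 in control and 2.41 in Seh1cKO, a 1.86-fold smaller read ratio (1.69 to 2.04).

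The elongases of polyunsaturated chains stood closer together. Elovl5, the most abundant elongase with 56.3% and 59.3% of the family's summed FPKM, was at 327 and 274 CPM, 1.19-fold lower (1.15 to 1.23). Elovl4, which extends ultra-long chains, was at 35.7 and 29.9 CPM, 1.20-fold lower (1.07 to 1.33). Elovl2, which elongates polyunsaturated chains as well, was at 6.13 and 7.38 CPM, with a ratio of 1.20 (0.945 to 1.54) that was not separated from equality. The other enzymes of the elongation cycle serve all elongases and differed little. Hsd17b12, the ketoacyl reductase, was at 184 and 185 CPM, with a ratio of 1.01 (0.962 to 1.05). The dehydratases Hacd3 (203 and 188 CPM) and Hacd2 (60.8 and 57.3 CPM) had ratios of 0.927 (0.887 to 0.969) and 0.942 (0.870 to 1.02). Tecr, the final reductase, was at 482 and 437 CPM, 1.10-fold lower (1.07 to 1.14). Of the 10 genes of elongation, 7 were lower and 3 higher, beside 39.1% and 60.9% of all genes. On the lower side 2 were past 1.5-fold, beside 3.52% of all genes, and the median log2 ratio was -0.13.

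Genes that activate or bind fatty acids were split. Acsl6 and Acsl3, acyl-CoA synthetases, were at 56.6 and 44.7 CPM and at 183 and 153 CPM, with ratios of 0.790 (0.724 to 0.862) and 0.839 (0.800 to 0.879). Acsl4, the synthetase of arachidonate and the only gene of the set on chromosome X, was at 31.2 and 38.3 CPM, 1.23-fold higher (1.11 to 1.37). Acsl1 was at 14.9 and 16.3 CPM, with a ratio of 1.09 (0.932 to 1.28) that was not separated from equality. Fabp7, the brain fatty acid binding protein of precursors and astrocytes (chromosome 10, 57784923 to 57788450), had the highest FPKM of the set and ranked 15 of all genes in each library. It was at 1594 and 1440 CPM, 1.11-fold lower (1.09 to 1.13). Fabp5, its epidermal-type relative (chromosome 3, 10012585 to 10016610), was at 794 and 626 CPM, 1.27-fold lower (1.24 to 1.30). The lower astrocyte marker sum, given with the desaturases, belongs to the same library, as do the higher precursor markers (1.38 times control in sum), and the part of either in the Fabp7 value was not tested.

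**Figure D3:**
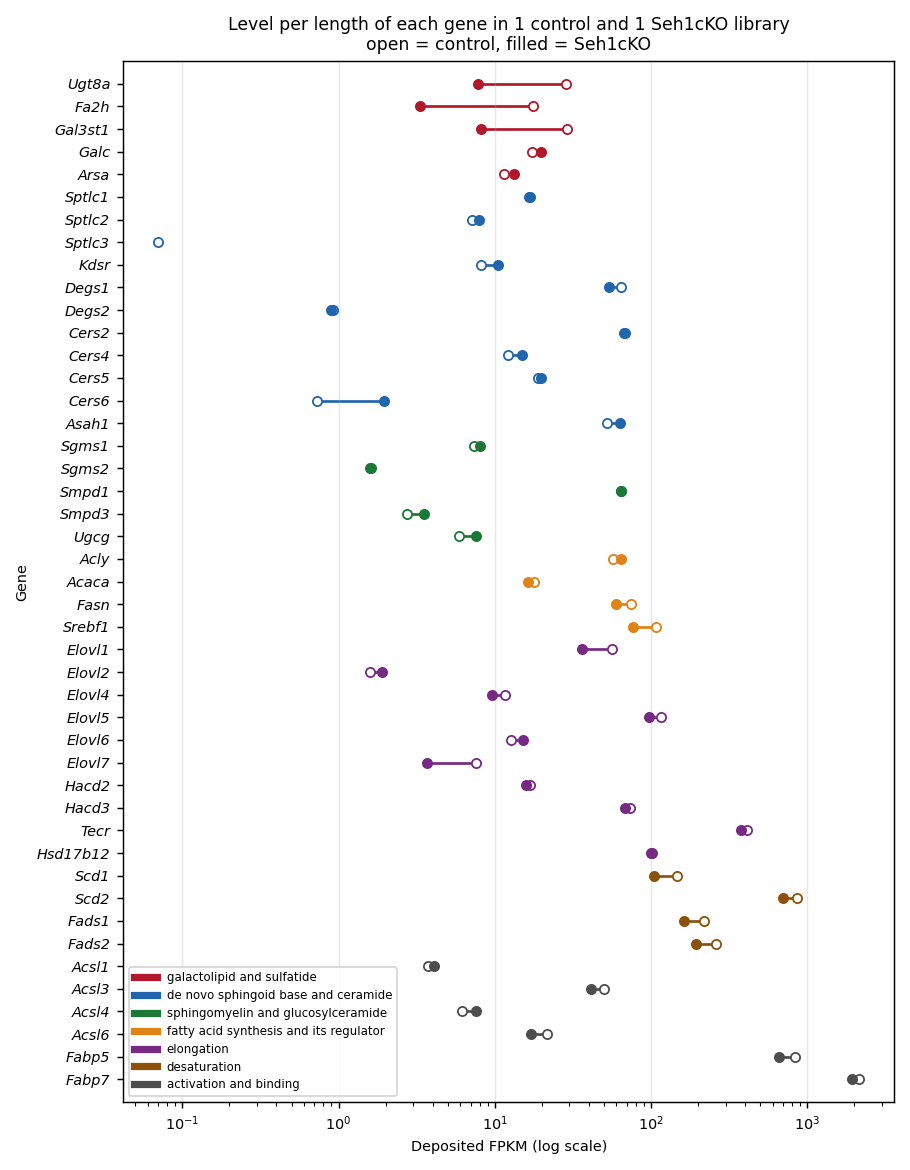
Deposited FPKM, a level per transcript length, of the 45 listed genes in 1 control (open) and 1 Seh1cKO (filled) library, on a log axis and coloured by role. Levels run from 0.07 FPKM (Sptlc3 in control) to 2156 FPKM (Fabp7 in control), and the widest gaps between circles are those of Fa2h, Ugt8a, Gal3st1, Cers6 and Elovl7.

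Per length, the order of abundance was nearly the same in both libraries at its top. Fabp7 stood at 2156 FPKM in control and 1947 FPKM in Seh1cKO. Scd2 was at 858 and 703 FPKM and Fabp5 at 836 and 659 FPKM. Tecr followed at 412 and 374 FPKM, ahead of Fads2 at 262 and 195 FPKM. Ugt8a and Gal3st1 were close in level in each library, at 28.5 and 29.2 FPKM in control and at 7.77 and 8.12 FPKM in Seh1cKO. With no replicate, the order of near neighbours such as these cannot be set against a spread between samples.

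Other genes of the same pathways, which were not in the set, were counted in the same way. Past 2-fold, 1 further sphingolipid gene and 1 further fatty acid gene were higher and none lower, beside 2.86% and 1.29% of all genes. At 1.5-fold, 1 sphingolipid gene was higher and 1 lower. For the fatty acid genes this was 4 higher and 1 lower, beside 9.43% of all genes higher and 3.52% lower. Of 35 further sphingolipid genes, 33 were measured, 19 higher and 14 lower, beside 60.9% and 39.1% of all genes. Their median log2 ratio was 0.04, beside 0.07 over all genes. Gltp, the glycolipid transfer protein that moves galactosylceramide and glucosylceramide between membranes, was the gene past 1.5-fold on the lower side, at 157 and 99.6 CPM, 1.57-fold lower (1.49 to 1.66). Sphk1, which makes sphingosine phosphate, was past 2-fold on the higher side at 3.28 and 7.67 CPM, 2.34-fold higher (1.75 to 3.15). Among 32 further fatty acid genes, 28 were measured, 16 higher and 12 lower, beside the same shares of all genes, with a median of 0.05. Acot7, a brain acyl-CoA thioesterase, was at 64.3 and 41.9 CPM, 1.53-fold lower (1.41 to 1.67). Thrsp, a thyroid hormone-responsive gene of lipogenesis, was at 14.9 and 29.2 CPM, 1.96-fold higher (1.70 to 2.25). Hacd4 passed 2-fold on the higher side at low levels, 0.820 and 2.82 CPM, and Scd4 and Fads3, given above, passed 1.5-fold.

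The authors' deposited table of changed genes lists 896 genes, among them 5 of the 46: Fa2h, Ugt8a, Gal3st1 and Elovl7 as lower and Cers6 as higher. In the authors' deposited table their log2 fold changes, from FPKM, are -2.40 for Fa2h, -1.88 for Ugt8a, -1.84 for Gal3st1, -1.05 for Elovl7 and 1.42 for Cers6. These are the same 5 genes as those past 2-fold here, which follows from the shared libraries. Its false discovery rates come from 1 library per group by a test that was not stated, and are not printed.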

How the data were processed

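RNA sequencing was compared between 1 control and 1 Seh1cKO library. Per the file headers, the authors deposited an expected count (an estimated count, not always whole) and an FPKM value per gene; HTSeq, StringTie and the mm10 build are named, without roles, in the submitters' processing notes. The aligner and the strandedness were not given in the sources used here. A log2 fold change and p-values stand in a further table deposited by the authors, whose test is likewise not stated. Genes missing from a library were set to 0. Expected counts were rounded and scaled to CPM; 17 of the 45 listed genes had counts that were not whole. Measured genes had a mean of at least 1 CPM, and log2 ratios used a pseudocount of 1 CPM. Ratios carry exact 95% Clopper-Pearson intervals, and read ratios between genes exact conditional intervals (scipy 1.17.1, Python 3.11.15); reads carry no molecular identifiers, so these cover counting error only. The interval of the median over genes is an order-statistic interval. The code was tested on simulated data. Genes were matched to RefSeq (GRCm38.p6, on which mm10 is based) by identifier for coordinates, 45 of 45; 25 of them overlap another RefSeq gene, whose reads may not be separable. The set and all gene lists were chosen with earlier results of these data known. Values are given for every gene of the set and, of the other pathway lists, for genes at least 1.5-fold apart at a mean of at least 5 CPM, with Hacd4, Scd3 and Scd4 named after their values were seen. The alternatives were 2 other pseudocounts, 2 other scalings, log2(FPKM + 1), 2 other floors and leaving out chromosomes X and Y. With 1 library per group, no library could be left out.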

Additional observations from a re-analysis of the deposited data

How the results depend on the processing

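No paired analysis was possible because each group holds 1 library. Of the 5 genes past 2-fold, Fa2h, Ugt8a and Gal3st1 were so under all 8 alternatives. Elovl7 and Cers6 were not with a pseudocount of 5 CPM or on log2(FPKM + 1). In each of those, the count of genes at least 2-fold higher was 0 and the count at least 2-fold lower was 3. Both alternatives add more, relatively, to low values. With nothing added, the deposited FPKM of Elovl7 (7.59 and 3.67) and of Cers6 (0.73 and 1.96) were more than 2-fold apart. The counts past 1.5-fold were 5 lower and 1 higher throughout. The median log2 ratio over the set ranged from -0.13 (median of ratios) to -0.05 (log2(FPKM + 1)). Median of ratios scaling moved the median of all genes from 0.07 to 0.00 and turned the sign of 6 genes near equality (Cers2, Cers5, Hsd17b12, Sgms2, Smpd1 and Sptlc1), and upper quartile scaling that of 3 (Hsd17b12, Smpd1 and Sptlc1). Over all genes, the counts at least 2-fold higher and lower were 394 and 178. They were 637 and 241 with a pseudocount of 0.1 CPM and 141 and 116 with 5 CPM. On log2(FPKM + 1) they were 204 and 148. Median of ratios gave 334 and 210, and a floor of 5 CPM gave 228 and 146. At this depth Sptlc3, Degs2, Elovl2 and Sgms2 were too low for differences as small as those of the other genes to be seen.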

Other observations

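Genes of fatty acid oxidation, the pathway opposite to synthesis, were close to equality in the same 2 libraries. Of 20 such genes, 12 were higher and 8 lower, beside 60.9% and 39.1% of all genes. Their median log2 ratio was 0.05, beside 0.07 over all genes. Cpt1a, which admits long chains to mitochondria, was at 36.1 and 46.4 CPM, 1.28-fold higher (1.17 to 1.42), while the brain form Cpt1c was near equal at 93.1 and 95.5 CPM, with a ratio of 1.03 (0.963 to 1.09). Ppara, a receptor that controls oxidation genes, was the gene of this list past 1.5-fold, at 3.52 and 7.18 CPM, 2.04-fold higher (1.53 to 2.74).

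Of 5 further enzymes of ganglioside synthesis downstream of Ugcg, 4 were higher and 1 lower, beside 60.9% and 39.1% of all genes. None was past 1.5-fold. B4galt5, a lactosylceramide synthase, was at 52.1 and 48.8 CPM, with a ratio of 0.936 (0.858 to 1.02) whose interval held equality. B4galt6, which catalyses the same step, was at 53.1 and 66.6 CPM, 1.25-fold higher (1.16 to 1.36). St3gal5, which makes the ganglioside GM3, was at 31.1 and 37.6 CPM, 1.21-fold higher (1.09 to 1.34). St8sia1, which makes the precursor ganglioside GD3, was at 27.3 and 38.2 CPM, 1.40-fold higher (1.25 to 1.56). B4galnt1, which acts on it next, was at 26.7 and 38.0 CPM, 1.42-fold higher (1.27 to 1.59). These genes were picked out after their values were seen.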
